A study of Homo sapiens with 6 samples.

Results

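Collagens, laminins and integrins were taken as the genes whose symbols begin with COL, LAMA, LAMB, LAMC, ITGA or ITGB followed by a digit, with antisense genes left out. Of 19775 genes measured, 77 met that rule, 43 collagens, 11 laminin symbols and 23 integrin symbols, and each was read from its brightest probe set among those assigned to it alone. Of the 77, 72 encode a chain or subunit. The other 5 share only the name: the pseudogene LAMB2P1, the divergent transcript ITGB1-DT, and ITGB1BP1, ITGB1BP2 and ITGB3BP, which encode proteins that bind integrin tails. The RNA came from ARPE-19, an established human line derived from retinal pigment epithelium. In 3 samples the cells had received 0.1% DMSO, the solvent control, and in 3 they had received SRPIN803 at 10 µM, each for 4 h, in medium with 10% serum. SRPIN803 is known as an inhibitor of the SR protein kinase SRPK1 and of protein kinase CK2. Nothing in the labels says that replicates were grown apart, and they do not say whether the SRPIN803 samples held the same amount of DMSO. The p-values describe the spread among these 6 samples, which may be technical.

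Collagens are secreted chains that wind around each other into fibrils or networks, and laminins are cross-shaped trimers of an alpha, a beta and a gamma chain that polymerise into basement membranes. Integrins, dimers of an alpha and a beta subunit, are the surface receptors that hold cells to both. The retinal pigment epithelium rests on Bruch's membrane, whose epithelial face is a basement membrane of collagen IV and laminin, and it takes up shed photoreceptor segments with an integrin that contains the ITGB5 subunit.

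The arrays were alike in signal, with medians over all probe sets of 5.25 to 5.28 (log2). Arrays of the same group correlated at 0.9957 to 0.9977 over probe sets, and arrays of different groups at 0.994 to 0.9961 (Pearson). Among retinal pigment epithelium markers, 17 were measured and 4 lay above the median level of all genes, 6.53, by the mean of all 6 arrays. The transcription factor genes MITF, at 10.05 in DMSO, and OTX2, at 10.39, were among these 4, whereas RPE65 (2.42) and LRAT (2.81), enzymes of the visual cycle, lay below the 25th percentile, 4.45. Of 5 simple epithelium markers, the keratin genes KRT8 (12.17) and KRT18 (13.78) lay above the 75th percentile, 8.96. The other 3, KRT19 (4.04), EPCAM (3.76) and the epithelial cadherin CDH1 (4.08), lay below the 25th. Of 10 mesenchymal or fibroblast markers 6 lay above the median, 4 of them above the 75th percentile, among these VIM (14.48) and CDH2 (11.85). Below the 25th percentile lay 2 of the 10, PDGFRA (3.31) and LUM (2.72). None of 5 endothelial, 5 leukocyte or 4 neural retina markers lay above the median. Of all these markers 1 was called between the groups, MITF, which rose by 0.35 ± 0.07 on the log2 scale after SRPIN803 (limma's adjusted p = 0.0312), and its part in the differences given here was not tested.

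Promoter sequences are shown for the gene that passed the test, ITGB8, for the collagen IV pair COL4A1 and COL4A2, which start head to head, and for LAMC1, whose array values followed a similar order to those of that pair. They are RefSeq promoters on GRCh38.p14, from a table in which 55 of the 77 genes were matched. The first is the whole of the 126 bases between the starts of COL4A1 and COL4A2 (chr13:110307158-110307283, plus strand, in the direction of COL4A2). The others are the 250 bases before the start of ITGB8 (chr7:20330650-20330899, plus strand) and of LAMC1 (chr1:183023170-183023419, plus strand). Capitals mark matches on either strand to the GC box GGGCGG and to the CCAAT box. The marked matches lie apart from each other.
COL4A1-COL4A2: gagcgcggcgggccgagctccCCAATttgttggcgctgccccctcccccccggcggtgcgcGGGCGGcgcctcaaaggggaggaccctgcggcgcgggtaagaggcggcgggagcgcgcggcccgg
ITGB8: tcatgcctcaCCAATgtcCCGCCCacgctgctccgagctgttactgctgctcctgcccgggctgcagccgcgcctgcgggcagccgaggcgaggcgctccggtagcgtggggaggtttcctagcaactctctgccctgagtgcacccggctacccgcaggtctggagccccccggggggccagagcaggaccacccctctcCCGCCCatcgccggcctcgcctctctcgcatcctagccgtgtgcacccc
LAMC1: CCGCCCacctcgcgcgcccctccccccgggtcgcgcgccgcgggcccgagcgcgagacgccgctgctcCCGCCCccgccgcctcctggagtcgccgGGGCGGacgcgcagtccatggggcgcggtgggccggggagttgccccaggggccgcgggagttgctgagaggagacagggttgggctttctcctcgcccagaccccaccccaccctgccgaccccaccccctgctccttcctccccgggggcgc

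The stretch shared by COL4A1 and COL4A2 held 1 GC box and 1 CCAAT box, that of ITGB8 held 2 and 1, and that of LAMC1 held 3 GC boxes and no CCAAT box. None of the 3 stretches held the TATA box TATAAA, the AP-1 site TGANTCA, the cyclic AMP half-site TGACG or the E-box CACGTG. Over all 27305 genes in the promoter table, the 250 bases before the start held a GC box in 42.3% and a CCAAT box in 33%, and for 126 bases the shares were 34.6% and 21.9%. An AP-1 site was found in 6.6% of all the 250-base stretches, a cyclic AMP half-site in 21.7% and an E-box in 6.49%. For 126 bases these 3 shares were 3.47%, 14.2% and 4.09%, so most promoters lack each of these sites. Among the 55 promoters of the collagen, laminin and integrin genes, 30 held a GC box (54.5%), 14 a CCAAT box (25.5%) and 5 a TATAAA match (9.09%, against 11.1% of all). The other collagen IV pairs also start head to head, COL4A4 and COL4A3 with 418 bases between them on chromosome 2, and COL4A6 and COL4A5 with 379 bases on the X chromosome.

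In DMSO, 31 of the 77 genes lay above the median level of all genes and 18 above the 75th percentile. Levels are log2 values of a single probe set, so they place a gene among bright or dim probe sets and do not compare the amounts of different transcripts. Among the collagens 9 of 43 lay above the 75th percentile, 5 more above the median, and 15 below the 25th percentile.

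Basement membrane collagen IV was well represented. COL4A1, which with COL4A2 forms the common collagen IV network, read 11.74, 11.98 and 12.00 on the DMSO arrays (11.91 ± 0.14, SD, n = 3). COL4A2 read 11.84, 11.99 and 11.99. COL4A3 (7.84 ± 0.18), COL4A4 (9.17 ± 0.11) and COL4A5 (9.25 ± 0.11), chains of the specialised collagen IV of kidney and eye basement membranes, also lay above the median, while COL4A6 (5.75 ± 0.06) lay below it. Within the head-to-head pairs, then, COL4A5 and COL4A6 fell on opposite sides of the median by their brightest probe sets. Of all their probe sets, 1 of 7 for COL4A3, 2 of 3 for COL4A4 and 1 of 2 for COL4A5 lay above the median. COL8A1, a short-chain collagen of Bruch's membrane, lay at 13.08 ± 0.07, and its partner chain COL8A2 at 6.44 ± 0.08. COL18A1, whose end fragment is endostatin, lay at 8.11 ± 0.10.

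Of the fibril-forming collagens, COL1A1 read 10.42, 10.89 and 10.63 in DMSO, but COL1A2, the other chain of collagen I, lay at 4.32 ± 0.05 with its brightest probe set. COL3A1, of the collagen III fibril, lay at 3.76 ± 0.11. Both of the latter lay below the 25th percentile. The other probe sets of COL1A1 lay at 7.28, 6.56, 5.94 and 5.24 in DMSO. Over all 6 arrays 2 of its 5 probe sets lay above the median, so its high level rests on the brightest. COL11A1 (12.02 ± 0.06), COL5A1 (7.69 ± 0.02) and COL5A2 (10.53 ± 0.04), chains of the minor fibrillar collagens that nucleate fibrils, lay above the median, while COL11A2 (6.09 ± 0.06) and COL5A3 (5.62 ± 0.16) lay below it. COL12A1, a fibril-associated collagen, lay at 11.17 ± 0.07, and it was the 1 of 10 fibril-associated collagens above the median. Collagen VI, a beaded filament protein, was dim: COL6A1 (6.67 ± 0.10) lay just above the median, and COL6A2 (5.25 ± 0.12) and COL6A3 (4.21 ± 0.10) lay below it.

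Among the 10 laminin chains, 5 lay above the median. LAMC1, the gamma chain of most laminins, read 11.21, 11.43 and 11.45 in DMSO, and LAMB1, its common beta partner, read 10.27, 10.45 and 10.42. LAMA4 (8.93 ± 0.10), LAMA5 (7.45 ± 0.08) and LAMB2 (7.91 ± 0.14) encode alpha and beta chains that can join LAMC1. LAMB3 (5.80 ± 0.18), LAMA1, LAMA2, LAMB4 and LAMC3 lay below the median, the dimmest being LAMB4 at 3.15 ± 0.09.

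Integrin subunits above the 75th percentile were ITGB1, ITGB5, ITGB8, ITGA4 and ITGA6. ITGB1, the beta subunit shared by most collagen and laminin receptors, read 13.78, 13.81 and 13.85 in DMSO. ITGB5 lay at 12.27 ± 0.05 and ITGB8 at 11.38 ± 0.08, and both pair with ITGAV, which the symbol rule does not reach and which lay at 12.86 ± 0.04. Of the alpha partners of ITGB1, the laminin receptor subunits ITGA6 (9.87 ± 0.05), ITGA7 (8.91 ± 0.07) and ITGA3 (8.12 ± 0.13), the collagen receptor subunits ITGA2 (7.82 ± 0.11) and ITGA1 (7.01 ± 0.03), and the fibronectin receptor subunits ITGA4 (9.23 ± 0.05) and ITGA5 (7.42 ± 0.04) lay above the median. The collagen receptor subunits ITGA10 and ITGA11, the leukocyte subunits ITGB2 and ITGB7, and ITGB3, ITGA2B, ITGA8 and ITGA9 lay below it, and so did ITGB4 (6.43 ± 0.11), the hemidesmosome partner of ITGA6.

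SRPIN803 changed 1 of these 77 genes past the threshold in limma's test (Benjamini-Hochberg adjusted p under 0.05 over all genes), against 5.84% of all genes (3.46% higher, 2.37% lower). Above the 75th percentile level the count was 1 of 18, against 7.32% of all genes that bright, and above the median 1 of 31, against 9.14%. At an unadjusted p under 0.05 the count was 10 of 77, against 19.5% of all genes. The groups did not overlap for 13 of the 77, 9 with SRPIN803 higher and 4 with it lower, against 25.6% of all genes. Because the values were normalized between arrays, a change shared by all transcripts cannot be seen, nor can fewer cells be told from less RNA per cell. The median log2 change was -0.01 for collagens, -0.02 for laminins and 0.05 for integrins, beside 0.02 for all genes. With 1 array left out, the collagen median ran from -0.036 to 0.0075, the laminin median from -0.085 to 0.030 and the integrin median from 0.024 to 0.058, so the sign of the first and second depended on single arrays. For 72 of the 77 the 95% confidence interval of the change lay within 0.5 of 0 on the log2 scale, against 89.5% of all genes, and for those above the 75th percentile level this held for 16 of 18, against 93.2%. The 5 with wider bounds were COL1A1, COL6A6, ITGA2B, ITGB3 and ITGB3BP.

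**Figure D1:**
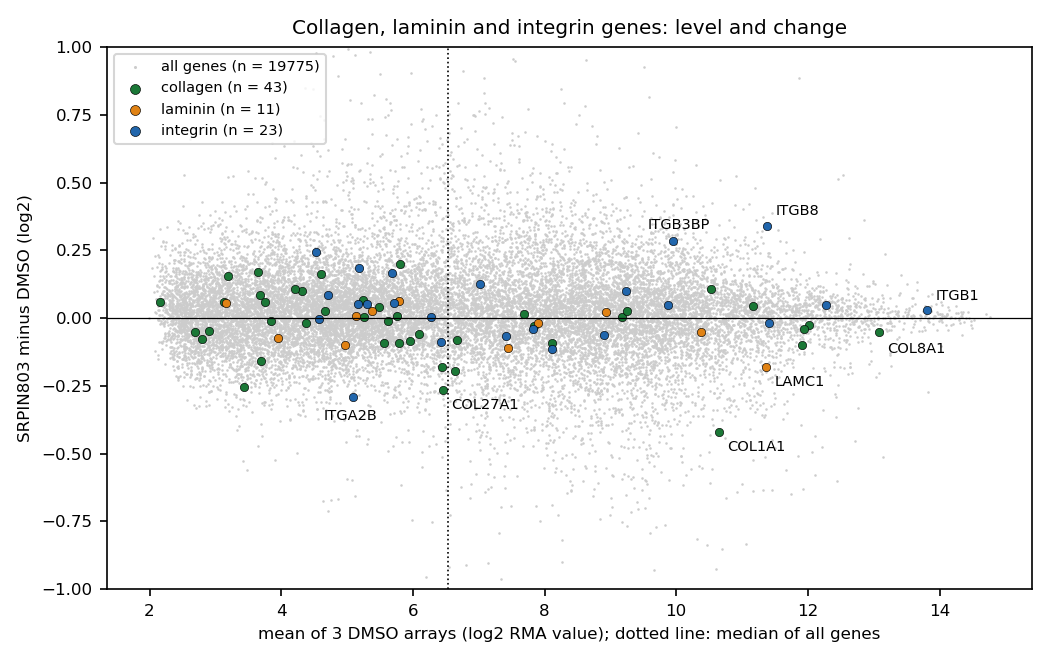
Each point is a gene, with its mean level on the 3 DMSO arrays (log2, horizontal axis) and its log2 difference SRPIN803 minus DMSO (vertical axis), for the 43 collagen (green), 11 laminin (orange) and 23 integrin (blue) symbols over all 19775 genes (grey). The vertical axis stops at 1 in either direction, which leaves 38 grey points and none of the coloured ones outside, and the coloured points lie between -0.42 (COL1A1) and 0.34 (ITGB8).

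ITGB8 rose 1.27-fold (95% interval 1.14 to 1.41). Its product pairs with the alpha-v subunit into a receptor that releases active TGF-beta from its latent complex. The 3 DMSO arrays read 11.29, 11.40 and 11.45 and the 3 SRPIN803 arrays 11.70, 11.68 and 11.78, so every treated value lay above every control value. The log2 change was 0.34 ± 0.07 (limma's standard error) with limma's adjusted p = 0.0268. With the mean of all 5 of its probe sets the change was -0.0033. The call was lost with any 1 array left out, at log2 changes of 0.30 to 0.37 and limma's adjusted p of 0.0582 to 0.0889. ITGAV, its partner, was at 0.07 ± 0.06 and was not called (limma's adjusted p = 0.592).

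ITGB1 and ITGB5, the other beta subunits above the median level, had narrow intervals around 0. ITGB1 read 13.85, 13.84 and 13.83 after SRPIN803, a log2 change of 0.03 with an interval of -0.10 to 0.15. ITGB5 read 12.32, 12.34 and 12.30, a change of 0.05 with an interval of -0.09 to 0.18. The upper bounds of both intervals lay below 0.19, the lower bound for ITGB8, although the difference between these genes was not tested. ITGB4 (-0.09 ± 0.09), ITGB2 (0.06 ± 0.08), ITGB7 (0.05 ± 0.10) and ITGB3 (0.17 ± 0.16) were not called. The interval for ITGB3 was wide, from -0.22 to 0.55.

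Among the 12 alpha subunits 0 were called in limma's fit and 1 had an unadjusted p under 0.05, against 5.84% and 19.5% of all genes. This 1 was the platelet fibrinogen receptor subunit ITGA2B. Its DMSO values were 5.19, 5.19 and 4.89 and its SRPIN803 values 4.83, 4.74 and 4.81, apart from each other but below the median level. Its log2 change was -0.29 ± 0.09 (limma's adjusted p = 0.121). Another ITGA2B probe set at the same mean level, 4.94, was at 0.02, and dimmer ones were at -0.01 and -0.13, all with overlapping groups. ITGA1 (0.13 ± 0.06) and ITGA4 (0.10 ± 0.06) had all 3 SRPIN803 arrays above all 3 DMSO arrays, and neither was called. ITGA6, ITGA7, ITGA3, ITGA2 and ITGA5 had changes of -0.11 to 0.05 and overlapping groups.

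Of the binding proteins, ITGB3BP, also known as a centromere protein, read 10.09, 9.91 and 9.84 in DMSO and 10.39, 10.14 and 10.17 in SRPIN803. The groups lay just apart, and its change of 0.28 ± 0.09 was not called (limma's adjusted p = 0.139). Muscle melusin, ITGB1BP2, was at 0.24 ± 0.09 and dim (limma's adjusted p = 0.180), while ITGB1BP1, a partner of the beta-1 tail, was at -0.02 ± 0.05. Without these 3 and ITGB1-DT, 1 of 19 integrin subunits was called and the median stayed at 0.05.

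**Figure D2:**
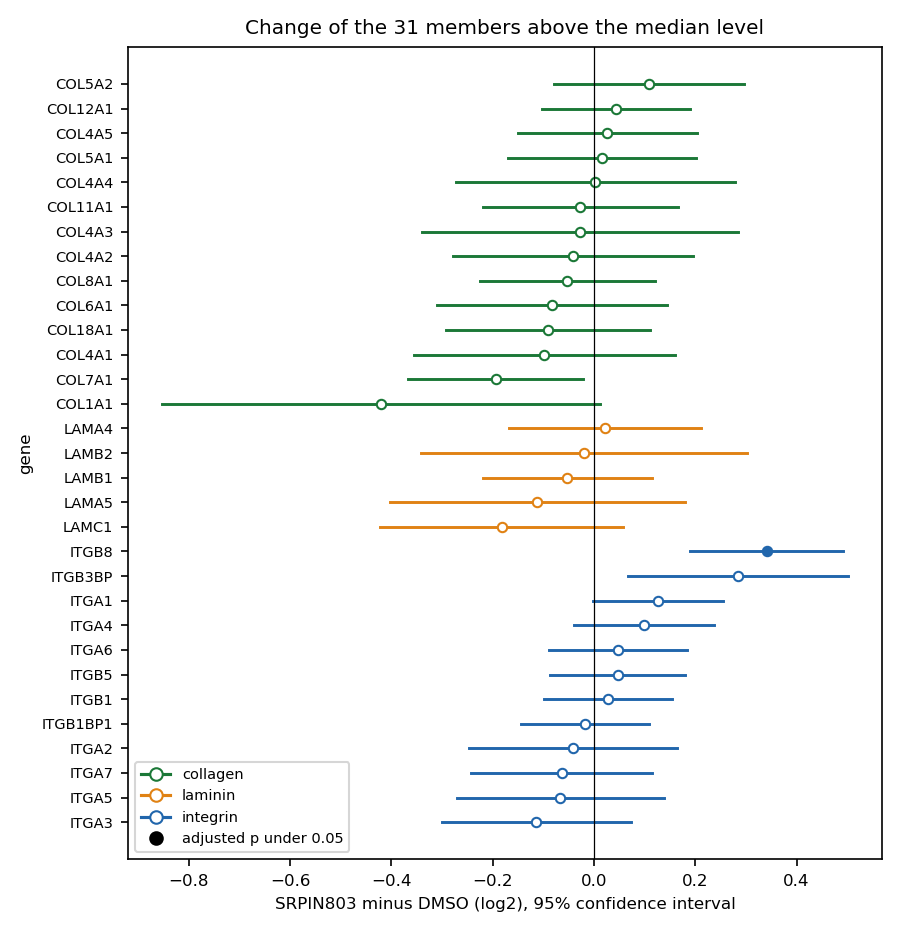
Log2 difference SRPIN803 minus DMSO (horizontal axis) with its 95% confidence interval for the 31 genes above the median level, by family and sorted by size. The filled point is ITGB8, at 0.34, the 1 gene past the threshold. COL1A1 has the widest interval, from -0.85 to 0.01.

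None of the 43 collagens was called in limma's fit (0 of 43, against 5.84% of all genes). At an unadjusted p under 0.05 the count was 6 of 43, against 19.5% of all genes. The groups did not overlap for 7 of 43, 4 with SRPIN803 higher and 3 with it lower, against 25.6% of all genes. COL27A1, a fibrillar collagen of cartilage, came closest to a call. It read 6.41, 6.49 and 6.47 in DMSO and 6.08, 6.25 and 6.25 in SRPIN803, with every treated array lower, and its change of -0.27 ± 0.07 had limma's adjusted p = 0.0652. COL7A1, the anchoring fibril chain, was at -0.19 ± 0.07 (limma's adjusted p = 0.199), and COL8A2 at -0.18 ± 0.07 (limma's adjusted p = 0.237), both with groups apart. COL9A2 (0.20 ± 0.07) and COL9A1 (0.16 ± 0.06), chains of the cartilage fibril-associated collagen IX, lay below the median level and had higher SRPIN803 values on every array, while COL9A3 was at 0.06 ± 0.08. COL2A1, the main cartilage collagen (0.15 ± 0.07), and COL10A1, of hypertrophic cartilage (0.08 ± 0.06), also had groups apart with SRPIN803 higher, and both lay below the 25th percentile level. The second probe sets of these genes had overlapping groups, at -0.14 for COL2A1, -0.06 for COL10A1, -0.0036 for COL9A1 and 0.08 for COL9A2. COL6A6, below the 25th percentile level, was at -0.26 ± 0.11 (limma's adjusted p = 0.242) with overlapping groups.

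COL1A1 had the largest difference of the 77 genes and also the widest spread among those above the median. Its SRPIN803 arrays read 9.82, 10.47 and 10.38, against 10.42, 10.89 and 10.63 in DMSO, so the groups overlapped. The change was -0.42 ± 0.19 (limma's adjusted p = 0.267). Without SRPIN803 replicate 1, the lowest of the 6, it was -0.22. These values are of its brightest probe set, and its other probe sets are given further on. COL1A2 was at 0.10 ± 0.14.

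The network collagens showed small differences in both directions. COL4A1 read 11.60, 11.88 and 11.95 after SRPIN803 (change -0.10 ± 0.11) and COL4A2 11.68, 11.99 and 12.03 (change -0.04 ± 0.10). By their brightest probe sets, the remaining collagen IV chains lay between -0.03 and 0.03. A second bright probe set of COL4A4, at a level of 8.18, was at -0.45 ± 0.17 with every treated array lower, and it was not called (limma's adjusted p = 0.267). COL8A1, at -0.05 ± 0.07, COL11A1, at -0.03 ± 0.08, COL12A1, at 0.04 ± 0.06, and COL5A2, at 0.11 ± 0.08, had overlapping groups, and their intervals reached -0.23 at the lowest and 0.30 at the highest. By class, the median log2 change was 0.02 over 11 fibrillar collagens, -0.01 over 6 collagen IV chains, -0.05 over 5 collagen VI chains and 0.03 over 10 fibril-associated collagens.

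Laminins were likewise not called (0 of 11 in limma's fit, and 0 at an unadjusted p under 0.05, against 5.84% and 19.5% of all genes). No laminin had groups apart, against 25.6% of all genes. LAMC1 had the smallest p. It read 10.99, 11.26 and 11.29 after SRPIN803, a change of -0.18 ± 0.10 (limma's adjusted p = 0.400). LAMA5 was at -0.11 ± 0.13, LAMA2 at -0.10 ± 0.10, LAMB1 at -0.05 ± 0.07, LAMB2 at -0.02 ± 0.14 and LAMA4 at 0.02 ± 0.08. All 11 intervals lay within 0.5 of 0.

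Replicate 1 gave the lowest value of its group in both groups for COL4A1, COL4A2, COL1A1, COL8A1, COL11A1, COL4A5, LAMC1 and LAMB1. These are 6 of the 9 collagens and both of the laminins above the 75th percentile level, against 1 of the 7 integrin symbols that bright (ITGB1BP1) and 26.8% of all such genes. Over the 77 genes the count was 19, against 16% of all genes. For COL4A1 the replicate 1 arrays read 11.74 and 11.60, below the other 4, which read 11.88 to 12.00. Taken against each gene's DMSO mean, the median collagen stood at -0.03, 0.03 and 0.01 on the DMSO arrays and at -0.05, 0.02 and 0.03 on the SRPIN803 arrays. The median laminin stood at -0.07, 0.01 and 0.09 and then at -0.08, 0.09 and -0.05, so neither family separated the groups. The median integrin stood between -0.01 and 0.01 in DMSO and between 0.03 and 0.07 in SRPIN803, beside 0.02 to 0.03 for all genes. The labels name no batch, and the part of replicate 1 in these differences was not tested.

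**Figure D3:**
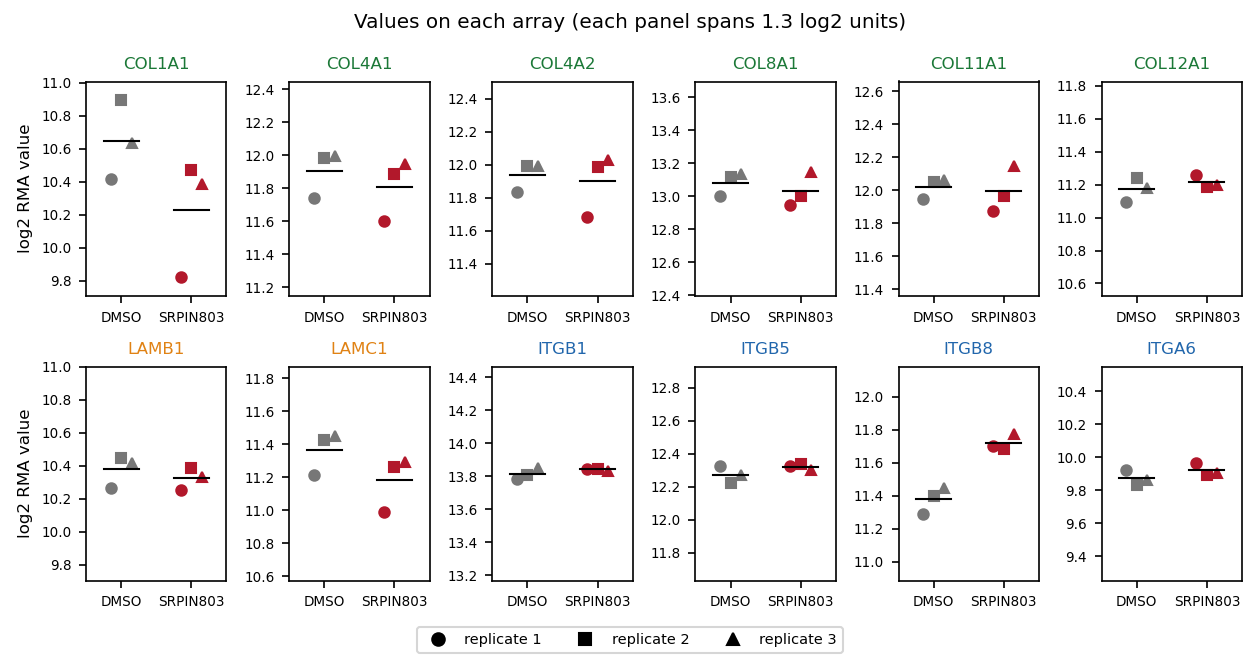
Log2 values on each of the 6 arrays for 12 genes, with DMSO in grey, SRPIN803 in red, a marker shape per replicate number and a bar at each group mean. All panels span the same range. ITGB8 is the panel with all red points well above all grey ones, and in COL4A1, COL4A2, COL1A1 and LAMC1 the circle, replicate 1, is lowest in both groups.

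The 77 genes had 205 probe sets of their own, and 58 genes had more than 1. Fitted over all 54613 probe sets, 0 of the 205 were called by limma, against 2.22% of all probe sets. At an unadjusted p under 0.05 in that fit the count was 20 of 205. Its share over all probe sets was not taken, so this count is not read as a result. ITGB8 was measured by 5. The bright one, which gave the rise, had limma's adjusted p = 0.0604 in that larger fit, and the other 4 lay below the median level at 3.68 to 5.88. Their log2 changes were -0.27 ± 0.12, -0.05 ± 0.09, -0.02 ± 0.12 and -0.02 ± 0.10, so the rise of ITGB8 rests on a single probe set. ITGB1 had 3 bright probe sets, at 0.04, 0.03 and -0.01. All 4 probe sets of ITGA4 lay above the median level and had higher means after SRPIN803, by 0.09 to 0.18.

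Some probe sets of a gene differed from each other. COL1A1 had 3 at -0.42, -0.47 and -0.46, the last with limma's adjusted p = 0.0673, and 2 at -0.03 and 0.12. The COL1A1 probe sets at -0.47 and -0.46 lay below the median level and had every treated array lower. For the brightest, at -0.42, and for those at -0.03 and 0.12 the groups overlapped. In LAMA4 the brightest was at 0.02 ± 0.09, while another, at a level of 6.46, was at -0.34 ± 0.07 with limma's adjusted p = 0.0623 and every treated array lower. ITGB3, whose 7 probe sets were all dim, had 1 at 0.50 ± 0.13 (limma's adjusted p = 0.0974) and the others between -0.09 and 0.17. COL12A1 had 1 dim probe set at -0.44 ± 0.12 and 4 between -0.10 and 0.10. The COL27A1 difference was likewise seen with its brightest probe set, the other 4 lying between -0.03 and 0.08. In the 6 collagen and laminin genes with exactly 2 probe sets, both above the median level, the brighter and the other were at -0.10 and -0.16 for COL4A1, -0.04 and -0.13 for COL4A2, 0.11 and -0.08 for COL5A2, -0.09 and -0.02 for COL18A1, -0.18 and 0.05 for LAMC1, and -0.05 and -0.21 for LAMB1, and none was called. Over all 77 genes, 24 probe sets other than the brightest lay above the median level, with changes from -0.45 (COL4A4) to 0.18 (ITGA4).

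**Figure D4:**
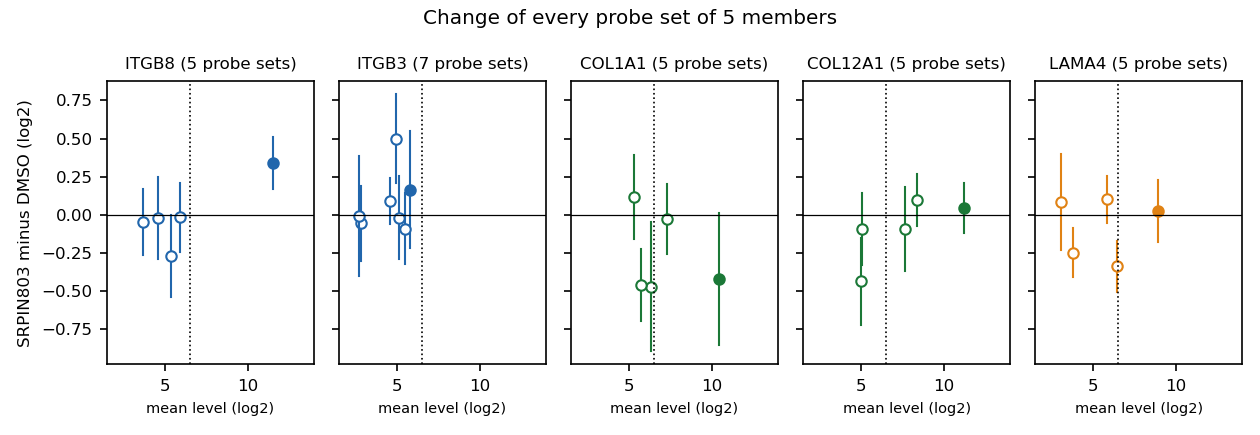
Mean level over 6 arrays (log2, horizontal axis) and log2 difference SRPIN803 minus DMSO with its 95% confidence interval (vertical axis) for every probe set of ITGB8, ITGB3, COL1A1, COL12A1 and LAMA4. Filled points mark the brightest probe set of a gene and the dotted line the median level of all genes. The dim probe sets of ITGB8 lie below 0, apart from the bright one at 0.34.

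Genes that work with these families were read from the same fit over genes. In it 5.84% of all genes were called and 19.5% had an unadjusted p under 0.05. Of 28 collagen processing genes, such as prolyl and lysyl hydroxylases, the chaperone SERPINH1 and lysyl oxidases, 0 were called in limma's fit (2 at an unadjusted p under 0.05, ADAMTS3 at 0.23 ± 0.09 and MIA3 at 0.20 ± 0.08). Of 25 integrin adaptors and adhesion signalling genes, such as talin, kindlin and focal adhesion kinase, 0 were called and 0 had an unadjusted p under 0.05 in limma's fit. The 2 with the smallest p were the kindlin gene FERMT2, at 0.21 ± 0.09, and CD47, at 0.13 ± 0.06. The 6 integrin alpha subunits outside the symbol rule had changes of -0.14 (ITGAD) to 0.11 and 0 calls in limma's fit, with 0 at an unadjusted p under 0.05. Among 9 other collagen and laminin receptors 0 were called in limma's fit (2 at an unadjusted p under 0.05). The syndecan SDC3 was at -0.39 ± 0.11 (limma's adjusted p = 0.0803) and the collagen receptor kinase DDR2 at 0.20 ± 0.06 (limma's adjusted p = 0.139).

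Of 21 matrix turnover genes 3 fell and 0 rose, beside 2.37% of all genes lower and 3.46% higher, and this list too was chosen with earlier results known. In limma's fit 5 of the 21 had an unadjusted p under 0.05, against 19.5% of all genes. ADAMTS1, a secreted protease that cuts proteoglycans, read 9.28, 9.27 and 9.39 in DMSO and 8.54, 8.74 and 8.52 in SRPIN803. It fell by 0.71 ± 0.08 on the log2 scale (limma's adjusted p = 0.00418) and stayed called with any 1 array left out. ADAMTS5, an aggrecan-cutting relative, read 8.97, 9.24 and 9.30 against 8.33, 8.59 and 8.80, a fall of 0.59 ± 0.13 (limma's adjusted p = 0.0462). PLAT, tissue plasminogen activator, fell by 0.40 ± 0.09 (limma's adjusted p = 0.0495). ADAMTS5 kept the call only without SRPIN803 replicate 3, and PLAT only without SRPIN803 replicate 1, with adjusted p up to 0.163 and 0.164 over limma's fits with 1 array left out. Of 19 basement membrane and matrix partners 1 fell and 0 rose. This was TNC, an adhesion-modulating matrix glycoprotein, at -0.33 ± 0.07 (limma's adjusted p = 0.0343), and it was not called once any single array was dropped (limma's adjusted p up to 0.121). TNC lay below the median level, at 6.06 in DMSO, and was the 1 of the 19 with an unadjusted p under 0.05 in limma's fit. The medians of these lists ran from -0.03 to 0.06, beside 0.02 for all genes.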

How the data were processed

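The deposited values were log2 values, 1 per probe set and array, which the authors made with RMA (background correction, normalization between arrays, summary of probes), per the submitters' processing notes. The sources used here give neither its options nor its version. RNA was labelled from 100 ng with a 3' kit, per the labels' protocols. Of 54675 probe sets, 62 were controls, 41091 named 1 gene, 1801 several and 11721 are unnamed here. Each gene took its brightest probe set over all 6 arrays, with no filter on dim genes. All 41037 probe sets found in the reference gene table kept their symbol and 54 kept the array's. The test was two-sided, from limma 3.58.1 (R 4.3.3) with lmFit and eBayes on the 2 groups, no other covariate and 4 residual degrees of freedom. P-values were adjusted by Benjamini-Hochberg over all genes. Standard errors and 95% intervals are limma's. An exact permutation test of 3 against 3 cannot go below p = 0.1, so none was used. The number of arrays limits the precision.

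Genes and lists were chosen with earlier results of these data known. Named were every called gene, up to 4 with the smallest p and the brightest of each family, with their partner chains. Genes named for their probe sets, their spread or their order of arrays were picked after their values were seen. The fit was tested on simulated data. Alternatives covered the replicate number, arrays left out, dim genes, probe set choice, normalization, variance model, weights and thresholds.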

Additional observations from a re-analysis of the deposited data

How the results depend on the processing

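The call of ITGB8, the 1 gene called, held after centring arrays, repeated quantile or cyclic loess normalization, a robust variance model, array weights and a filter at the median level. It also held with a choice among probe sets not ending in _x_at or _s_at. That choice left ITGB8 on the same probe set, so it could not show whether the call depends on the probe set. The count of called genes was 0 with the replicate number as a block (ITGB8 at limma's adjusted p = 0.0522), with the mean of all probe sets, in a test against a fold of 1.1 and at an adjusted p under 0.01. It was 2 among genes above the 75th percentile level and with a mean-variance trend (ITGB3BP joined at limma's adjusted p = 0.0480 and 0.0411) and at an adjusted p under 0.1 (COL27A1 joined). The range with 1 array left out was 0 to 0. Over all genes the count was 1154, 689 with the replicate block and 324 to 687 with 1 array left out. The labels state no pairing, and the arrays were not taken as pairs. The deviations of same-numbered arrays from their group means correlated at 0.18, -0.06 and 0.11. Replicate 1 was lowest in both groups for 16% of all genes and 26.8% of those above the 75th percentile level. These values do not settle whether same-numbered arrays belong together, which was not tested.

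The laminin median moved to -0.12 above the 75th percentile level, where 2 genes remained, and the integrin median to 0.0034 with the mean of all probe sets (0.024 to 0.058 with 1 array left out). The mean of all probe sets turned the sign of ITGB8 (-0.0033), ITGB5 (-0.0079), ITGA6 (-0.0032), ITGB1BP1 (0.0057), COL11A1 (0.018), COL4A4 (-0.14), COL12A1 (-0.097), COL1A2 (-0.023), COL5A1 (-0.084) and LAMA4 (-0.076). Without _x_at and _s_at probe sets it turned for ITGA2B (0.016), ITGB1 (-0.0075), ITGB5 (-0.0030), ITGB1BP1 (0.049), COL4A5 (-0.0096), COL1A2 (-0.022), COL5A1 (-0.17) and LAMA4 (-0.25). These settings read other probe sets. Changes near 0 also turned for COL4A3 with array weights (0.0019), COL4A4 with array weights (-0.0062), centring (-0.0094) and cyclic loess (-0.0005), and COL4A6 with centring (-0.0050) and cyclic loess (-0.0027). The genes listed in this paragraph are only part of those whose sign turned. Over all 77 genes, the sign changed for 19 with the mean of all probe sets and for 11 without _x_at and _s_at probe sets. It changed for 6 with array weights, 5 with centring, 5 with cyclic loess and 2 with repeated quantile normalization. The cause was not tested.

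With 1 array left out, the sign turned within -0.071 to 0.14 for COL4A4, -0.067 to 0.12 for COL4A6, -0.16 to 0.073 for COL4A3, -0.034 to 0.071 for COL4A5, -0.18 to 0.0075 for COL4A1, -0.11 to 0.068 for COL4A2, -0.10 to 0.034 for COL11A1, -0.061 to 0.080 for COL5A1, -0.015 to 0.27 for COL1A2, -0.013 to 0.12 for COL9A3, -0.12 to 0.0098 for ITGA2, -0.14 to 0.025 for ITGA5, -0.10 to 0.14 for LAMB2, -0.036 to 0.071 for LAMA4, -0.23 to 0.030 for LAMA5 and -0.028 to 0.15 for LAMB3. None of these 16 genes was called in the main comparison or with any 1 array left out. The list does not cover every gene whose sign turned. Over all 77 genes, the sign changed for 16 without SRPIN803 replicate 1, and for 7 to 11 without any other single array.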
